A study of Arabidopsis thaliana with 8 samples.

Results

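The tiles described here are those numbered TB00A01 to TB49H12 on an array that tiles chromosome 4 of Arabidopsis thaliana, the chromosome named in the series title. The rule that defines them uses the ID (series TB, plates 00 to 49) and the presence of a value in every column, but no level of the log ratio. Earlier results of these data were known when tiles, rules and comparisons were chosen. Of 4800 such wells on 50 plates, 4737 had a value, which is 22.2% of the 21296 measured tiles of the array. Histone H3 dimethylated at lysine 4 (H3K4me2) had been immunoprecipitated from chromatin of C24 seedlings, a natural accession, that were 10 days old and had grown in liquid medium with no treatment. The immunoprecipitated DNA (IP) and input DNA had been hybridised together on 8 arrays, as 4 dye swaps that the labels number I to IV, with 50 µg stated for each. All arrays form 1 group, IP against input in C24, and each dye swap counted as 1 sample (n = 4) because its 2 arrays hold identical values. Whole seedlings mix many cell types, so a tile marked in fewer cells and a tile marked less in each cell cannot be told apart. The labels do not say that the replicates came from separate cultures, so every p-value below measures only the spread between these samples, which may be technical.

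H3K4me2 is written by SET-domain methyltransferases of the Trithorax type and can be removed by LSD1-type and Jumonji-type demethylases. In Arabidopsis it is known to lie over genes of euchromatin, whether strongly transcribed or not, and to be scarce over silenced transposons, where methylation of histone H3 at lysine 9 and of cytosines prevails. Chromatin immunoprecipitation on a tiling array reads this as a log ratio of IP and input signal at each printed tile, so a profile along consecutive tiles shows where the mark changes along the chromosome.

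Values are given as the deposited log ratio minus the median of the same array over all measured tiles. The base of the logarithm and the direction of the ratio are stated in no source used here, so tiles are called above or below the array median and never enriched or depleted. The medians subtracted were -0.79 for I, -0.46 for II, -0.89 for III and -0.35 for IV. No table used here gives the sequence, gene or position of a tile, so no sequences are printed. The order below is that of plate, row and column in the ID. Replicates I and III resembled each other, as did II and IV. Across the 4737 tiles, which are not independent of each other, Pearson's r was 0.980 for I with III and 0.984 for II with IV, and between 0.913 and 0.922 for the other 4 pairs. These pairs do not coincide with the second number in the array titles, whose meaning is not stated and which I shares with II and III with IV.

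Tiles of TB00 to TB49 lay mostly above the array median. Replicates I to IV gave medians of 0.38, 0.39, 0.36 and 0.42. Each was above 0, and their mean was 0.39 ± 0.02 (SD, n = 4). An exact permutation test that flips signs over replicates, two-sided, gave p = 0.125, the lowest value that 4 replicates allow. By limma's moderated test, fitted on all 21296 tiles with a Benjamini-Hochberg adjusted p of 0.05, 2530 of the 4737 tiles (53.4%) were above the median, against 42.2% of all tiles. A further 1380 (29.1%) were below it, against 42.3% of all tiles, and 827 were not called. The calls on either side make 3910 of 4737 tiles (82.5%), against 84.5% of all tiles, and 3862 of them kept 1 sign over the replicates. By sign alone, 2593 tiles were above in each of the 4 replicates, against 43% of all tiles, and 1418 below, against 43.2%. The side of 0 on which the bulk of these tiles falls depends on the centring. Without centring 37.8% of the called tiles were above 0, and with each array centred on its mode 38.3%, in place of 64.7%. The corresponding shares over all tiles were 27.2%, 28.3% and 49.9%. When the look-alike replicates (I with III, II with IV) were first averaged, 2285 tiles (48.2%) were called above and 1136 (23.98%) below, against 37.9% and 38.2% of all tiles.

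**Figure D1:**
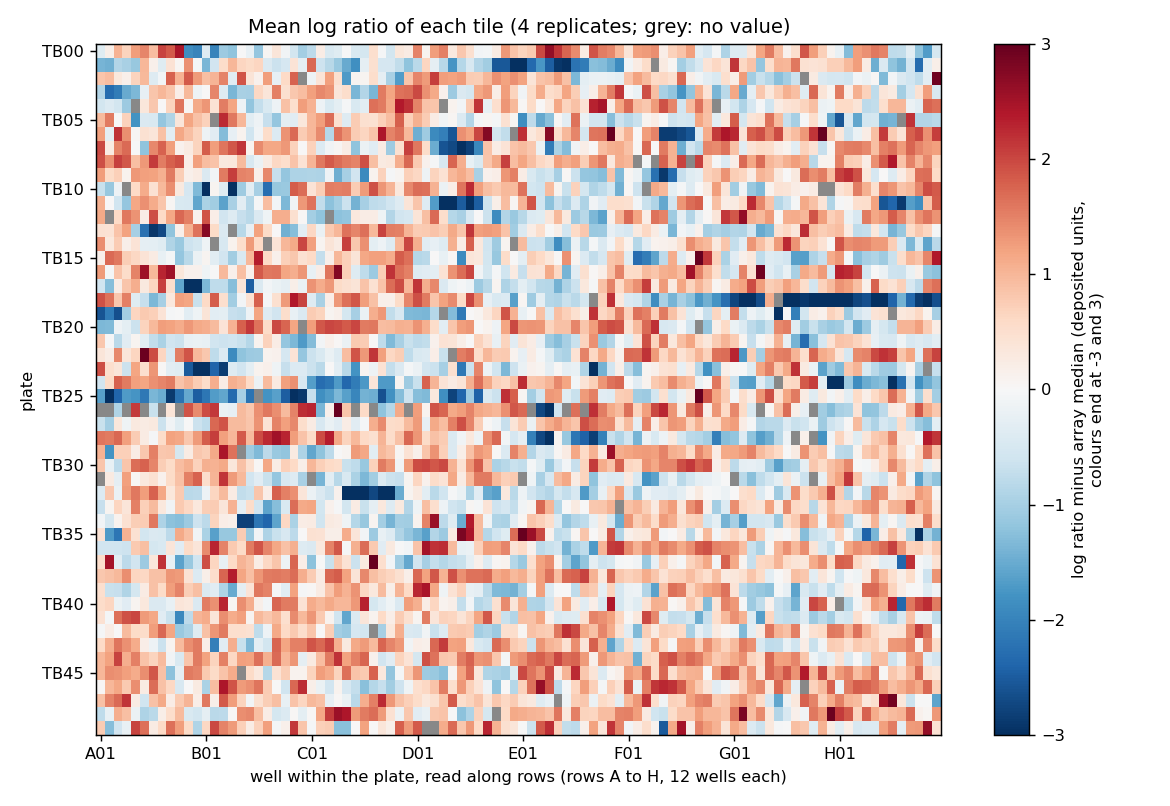
Mean log ratio of every tile of TB00 to TB49 over 4 replicates, minus the array median, in deposited units. Each line of the map is a plate and each cell a well read along rows A to H; red is above and blue below the median, colours end at -3 and 3, and grey wells have no value. Blue streaks such as TB24G12 to TB25D10 and TB18F01 to TB19A04 stand in a background mostly above the median, and plates TB40 to TB49 hold almost no dark blue.

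Far from the median the tiles were unequally shared between the sides. A mean of more than 1 above was reached by 1351 tiles (28.5%), against 22.3% of all tiles, and a mean of more than 1 below by 522 (11.02%), against 26.3%. Beyond 2, there were 171 tiles above (3.61%), against 2.49% of all tiles, and 134 below (2.83%), against 13.4%. Among the 100 highest tiles of the whole array 30 belonged to TB00 to TB49, and among the 100 lowest 2, beside their share of 22.2% of all measured tiles. This imbalance was not particular to TB00 to TB49. TB50 to TB99, also 22.2% of the measured tiles, held 30 of the 100 highest and 0 of the 100 lowest. There 32.6% of tiles were more than 1 above and 8.15% more than 1 below, and 3.24% and 0.91% lay beyond 2. By limma's test 59.6% of them were called above and 22.7% below.

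Set beside other stretches of the array, TB00 to TB49 differed more in its low tail than in its high one. TB50 to TB99 was taken as the other part of the same tile series. TA64 to TA99 and TA00 to TA20 were taken as stretches of similar level outside the long low blocks of the array. Measured values thus entered the choice of these 2 stretches, and their differences are descriptions. Its 5th percentile was -1.54 ± 0.09 (SD, n = 4), against -1.24 ± 0.07 in TB50 to TB99, -2.10 ± 0.01 in TA64 to TA99 and -3.03 ± 0.19 in TA00 to TA20. The 95th percentile, 1.94 ± 0.10, was close to the 1.92 ± 0.08 of TB50 to TB99, with a difference of 0.02 ± 0.03 that was positive in 3 of 4 replicates (exact permutation p = 0.25). The median of TB00 to TB49 minus that of TB50 to TB99 was -0.16, -0.22, -0.18 and -0.14 over replicates I to IV, with a mean of -0.18 ± 0.03 and 1 sign in 4 of 4 replicates. It was higher than TA64 to TA99 by 0.40 ± 0.03 and than TA00 to TA20 by 0.25 ± 0.04, again in 4 of 4 replicates. From all other tiles it differed by 0.53 ± 0.03, which was smallest in III at 0.49 and largest in IV at 0.56. Each of these 4 differences of medians had an exact permutation p of 0.125 (two-sided), the lowest possible, and 0.133 after Benjamini-Hochberg adjustment over 16 such comparisons. None can pass 0.05 with 4 replicates, and the likeness within the replicate pairs leaves fewer independent values than 4.

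**Figure D2:**
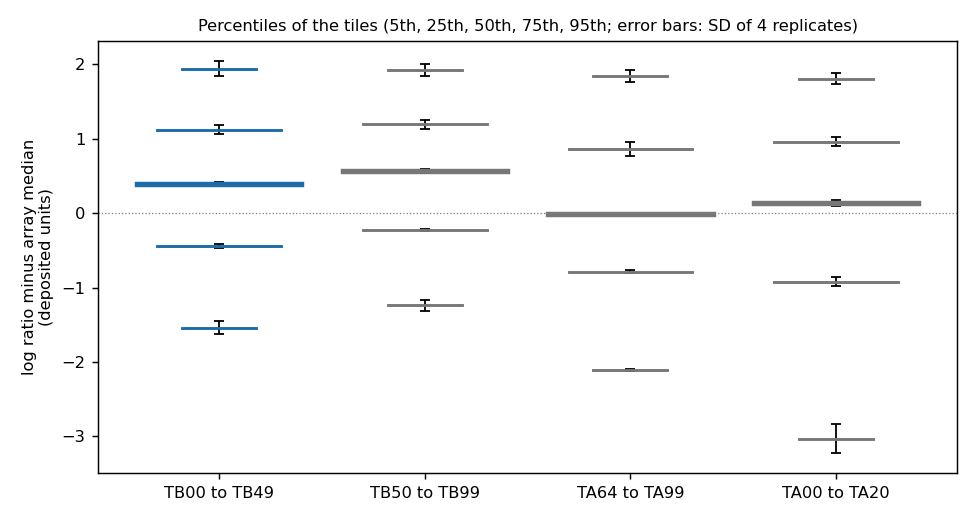
Percentiles (5th, 25th, 50th as the thick line, 75th and 95th) of the tile values in TB00 to TB49 (blue) and in 3 other stretches (grey), as means over 4 replicates with the SD as error bars, in deposited log ratio units minus the array median. The upper percentiles lie close together, between 1.80 and 1.94 for the 95th, and the 5th runs from -1.24 in TB50 to TB99 to -3.03 in TA00 to TA20.

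Plate by plate the level went up and down many times. The median of a plate was above 0 in every replicate for 38 of the 50 plates, below 0 in every replicate for 8, and of mixed sign for 4. The SD of the 50 plate medians was 0.43, while the SD of a plate median over replicates was 0.08 in the typical plate and at most 0.26. TB44 and TB08 were the highest plates, at 1.03 ± 0.08 and 1.03 ± 0.17 (SD, n = 4). TB44 had 0.93, 1.03, 1.03 and 1.14 in replicates I to IV, and limma called 75 of its 96 tiles above the median. TB26 followed at 0.99 ± 0.17 and TB45 at 0.95 ± 0.05. TB25 was the lowest plate at -0.74 ± 0.03, with -0.70, -0.76, -0.77 and -0.72 in replicates I to IV. Its 56 tiles below the median of 95 measured make 58.9%, the highest share of any of the 50 plates. The other low plates were TB18 at -0.47 ± 0.07, TB01 at -0.47 ± 0.08 and TB23 at -0.37 ± 0.03.

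Low plates were low in different ways. In TB18 the tiles spread most widely of all 50 plates, with an interquartile range of 2.61, with rows F to H far below the median and row medians above it from A to D. TB23 had an interquartile range of 0.94 and tiles from -3.64 to 2.16. Of its tiles 48 were called below and 18 above, the lowest share above of the 50 plates at 18.9%. TB38 was the opposite case, with 79 of 96 tiles (82.3%) above the median, 4 below, no tile under -0.63 and an interquartile range of 0.85. The narrowest plate was TB47, at 0.83.

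**Figure D3:**
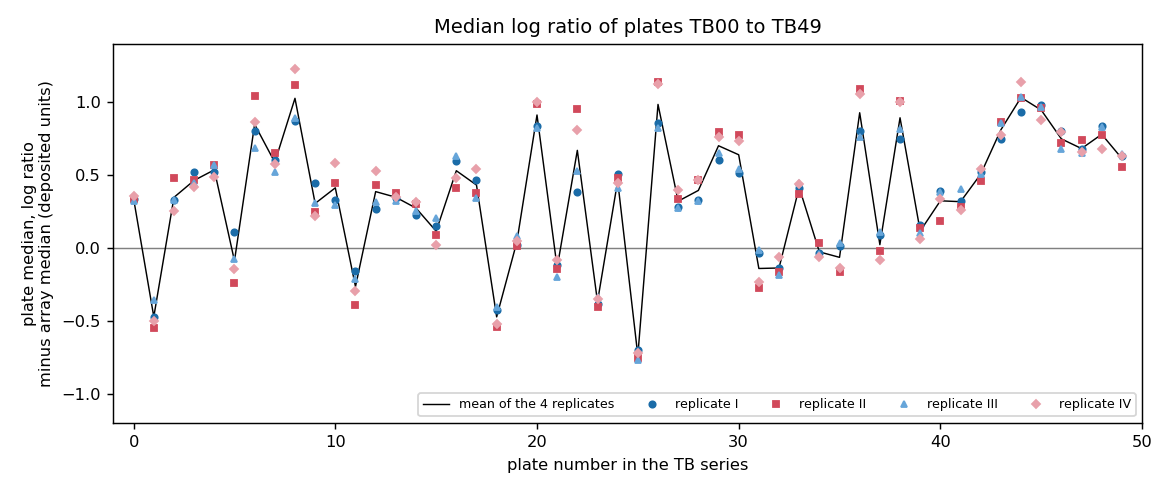
Median log ratio of each plate from TB00 to TB49 in replicates I (circles), II (squares), III (triangles) and IV (diamonds), minus the array median, in deposited units, with the mean over replicates as a line. Plates swing between -0.74 (TB25) and 1.03 (TB44), replicates of a plate lie close together, and from TB36 onward no mean falls below 0.

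The last 10 plates were the highest and the most even. TB40 to TB49 had medians of 0.69, 0.68, 0.68 and 0.67 in replicates I to IV, with 625 of 952 tiles (65.7%) above the array median and 173 (18.2%) below. The replicates were nearly alike. In the preceding groups of 10 plates, the medians were 0.43 ± 0.05 for TB00 to TB09, 0.22 ± 0.03 for TB10 to TB19, 0.28 ± 0.06 for TB20 to TB29 and 0.28 ± 0.03 for TB30 to TB39 (SD, n = 4). Only 3 tiles of TB40 to TB49 lay more than 2 below the median, against 28, 47, 42 and 14 in the preceding groups in order. Tiles more than 2 above numbered 40 in TB40 to TB49, beside 40, 34, 31 and 26. After TB35, with a median of -0.06, all 14 plates to TB49 had a mean above 0, from 0.02 in TB37 to 1.03 in TB44. The groups were formed by number, but TB40 to TB49 was singled out after the values were seen, so its difference is a description.

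The 1380 tiles below the median formed 516 runs of consecutive called tiles, most of them short, with a mean length of 2.67 and 225 single tiles. Some of the lowest values lay in long, deep stretches and others in short patches. Tiles under -2 numbered 134, and 49 of them (36.6%) were on 3 plates, TB18 with 22, TB25 with 16 and TB01 with 11. They occurred on 26 plates, and the next of these held 8. For 90 of the 134 (67.2%) both neighbours were more than 1 below as well, and for 12 neither was. Runs of 3 or more consecutive tiles under -2 numbered 17 and held 82 tiles.

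The longest run below the median was TB24G12 to TB25D02, with 50 tiles and means of -1.89, -1.79, -1.85 and -1.94 in replicates I to IV. The replicates lay close together. It began abruptly: TB24G10 was at 2.07, TB24G11 at -0.30, and TB24G12, the first tile of the run, at -3.63 ± 0.30 (SD, n = 4; limma adjusted p = 3.1e-07). Within it, TB25A02 was the lowest tile at -3.70 ± 0.24 (limma adjusted p = 2.5e-07). A single tile above the median, TB25D03 at 0.32, separated it from TB25D04 to TB25D10, so that 57 of the 58 measured tiles from TB24G12 to TB25D10 were below. TB25D11, at 2.20, ended the stretch.

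The second and deeper stretch ran from TB18F01 to TB19A04, where 38 of 39 measured tiles were below the median and 25 were under -2. Replicates I to IV had means of -2.30, -2.18, -2.32 and -2.18, close together. The near end was drawn out, with TB18F01 at -0.44, TB18F06 at -1.38, TB18F12 at -2.26 and TB18G03 at -3.40, though not every tile was lower than the one before. The exception, TB18G05, stood at 1.09 ± 0.37 (SD, n = 4; limma adjusted p = 0.00022), between TB18G04 at -2.66 and an unmeasured well. From TB18G07 to TB18H07 came 13 tiles in succession under -2, the longest such patch in TB00 to TB49, with a mean of -3.12 ± 0.27. The far end was sharp, with TB19A03 at -2.63, TB19A04 at -1.02 and TB19A05 at 0.64.

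The lowest single tiles were in a short patch, TB32C05 to TB32C11, on a plate whose median was only -0.14. TB32C07 had -4.57, -3.94, -4.64 and -4.07 in replicates I to IV, the lowest mean of all 4737 tiles at -4.30 ± 0.35 (SD, n = 4; limma adjusted p = 2.7e-07). Its neighbour TB32C06 had -4.58, -3.28, -4.69 and -3.74 in the same order, a mean of -4.07 ± 0.68 (limma adjusted p = 2.2e-06). Replicates I and III were lower than II and IV at both tiles, and all 8 values were far below the median. On either side the level was that of the array median, with TB32C04 at 0.12 and TB32C12 at 0.09, neither of which passed the test. These tiles are the 2 of TB00 to TB49 among the 100 lowest of the array.

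TB01E06 came next, with -3.73, -3.82, -3.70 and -3.77 in I to IV and a mean of -3.76 ± 0.05 (SD, n = 4; limma adjusted p = 2.4e-07). It lay inside TB01D03 to TB01E12, the third longest run below, with 22 tiles and a mean of -1.87 ± 0.08. TB23B01, at -3.64 ± 0.18, was in the middle of a patch of 5 tiles, TB23A11 to TB23B03, with a mean of -2.94 ± 0.08. TB17A12, at -3.63 ± 0.20, had TB17A11 at -3.05 before it and TB17B01 at -1.35 after it. TB10B01, at -3.61 ± 0.10, lay between TB10A12 at -1.31 and TB10B02 at 0.09. All 8 of the lowest tiles had a limma adjusted p of at most 2.2e-06 and kept their side of the median in every alternative run.

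**Figure D4:**
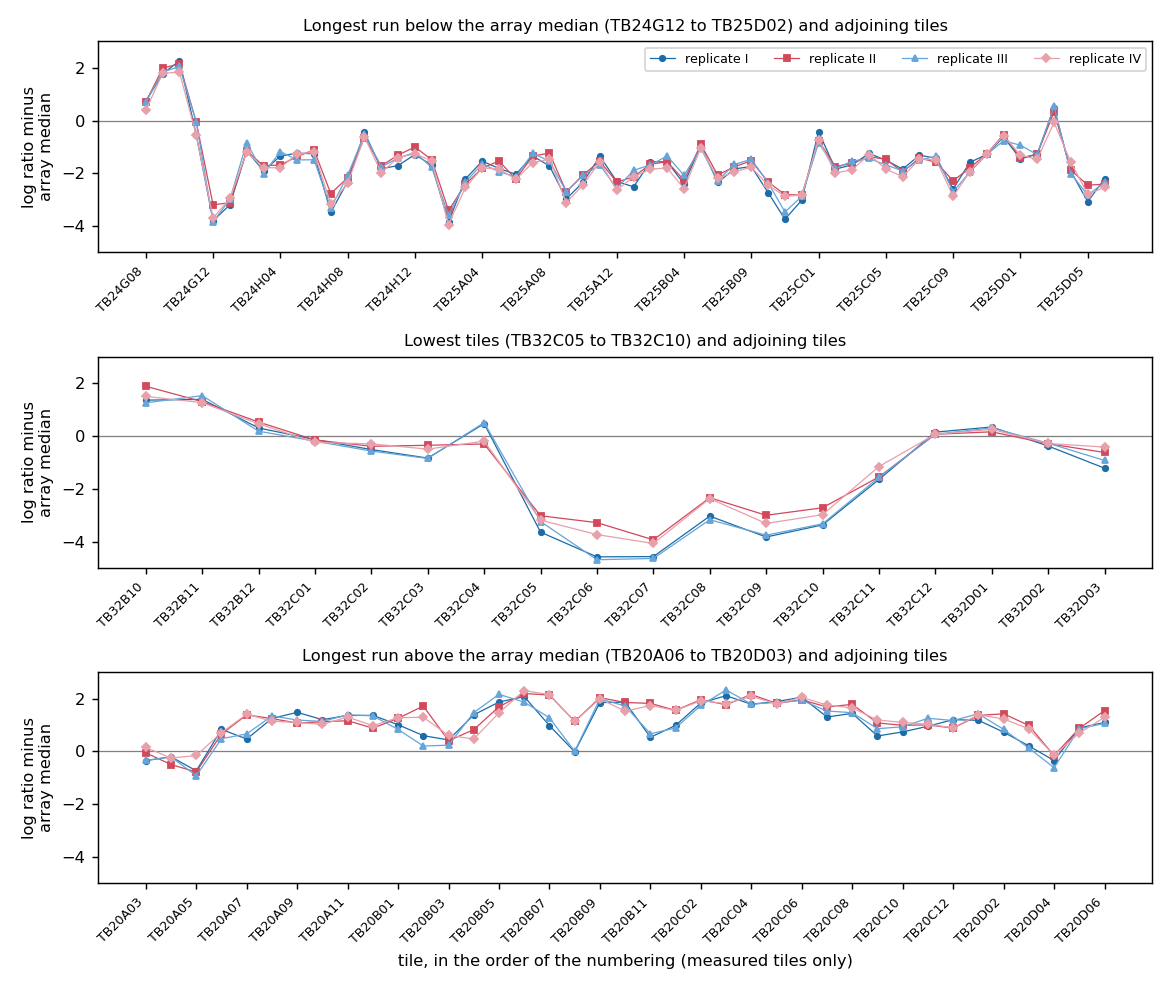
Log ratio minus the array median, in deposited units, in replicates I (circles), II (squares), III (triangles) and IV (diamonds) along consecutive measured tiles of 3 stretches: the longest run below the median with its neighbours, the lowest tiles with theirs, and the longest run above. The low stretches drop from above or near 0 to below -3 within 1 or 2 tiles, and the tile means of the run above lie between 0.42 and 2.11.

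Stretches above the median were longer on average. The 2530 tiles above formed 610 runs with a mean length of 4.15, and 65.6% of these tiles lay in runs of 5 or more, against 41.9% of the tiles below. The shares above and below were 65.2% and 30.5% in TB50 to TB99, 49.4% and 47.8% in TA64 to TA99, and 50.9% and 49.1% in TA00 to TA20. Run lengths depend on how many tiles are called on each side, and so on the centring. Runs were not recomputed at other centrings. Of 55 runs of 10 or more tiles above, the longest were TB20A06 to TB20D03 and TB28A08 to TB28D04, both of 33 tiles. The first had means of 1.20, 1.43, 1.22 and 1.39 in replicates I to IV, and its tiles ranged from 0.42 to 2.11. The second had 1.05, 1.47, 1.05 and 1.46. In both, II and IV were above I and III, with no overlap between the pairs. TB38D01 to TB38F04 was the third longest, with 28 tiles and a mean of 1.28 ± 0.23 (SD, n = 4). Values over 2 rarely lasted: the longest unbroken series of tiles above 2 had 3 tiles, and there were 6 of them. The highest was TB48C03 to TB48C05, with a mean of 2.37 ± 0.07. In TB50 to TB99 the tiles above formed 649 runs with a mean length of 4.34 and a longest of 34, and those below 478 runs with a mean of 2.24 and a longest of 19.

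Some of the highest tiles stood alone and others had a high tile beside them. TB26C04 had 3.85, 4.20, 3.75 and 4.04 in replicates I to IV, a mean of 3.96 ± 0.20 (SD, n = 4; limma adjusted p = 2.4e-07). It lay between TB26C03 at 0.15 and TB26C05 at 0.84, far below it. TB25F09 had 3.31, 3.20, 3.38 and 3.11 in I to IV, a mean of 3.25 ± 0.12 (limma adjusted p = 2.4e-07), and was the highest tile of the lowest plate. TB25F08 before it was at 0.30 and TB25F10 after it at 1.86. The other tiles among the 8 highest were TB15F09 at 3.12 ± 0.11, TB06E11 at 3.11 ± 0.16, TB37C08 at 3.10 ± 0.30, TB06G11 at 3.07 ± 0.05, TB35E01 at 3.03 ± 0.11 and TB22A06 at 2.94 ± 0.18. Of these, TB06G11 and TB35E01 had a neighbour above 2, TB06G10 at 2.14 and TB35E02 at 2.58, and TB15F10, next to TB15F09, was at 2.11. TB37C08 rose out of tiles near the median, TB37C07 at 0.29 and TB37C09 at 0.50. Among the 171 tiles above 2, both neighbours were above 1 for 69 (40.4%), and neither for 25 (14.6%). TB06 held 14 of the 171 and TB16 held 11.

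High and low tiles could stand side by side. The largest difference between adjacent tiles of a plate was from TB40H07, at 2.29 ± 0.80 (SD, n = 4), to TB40H08, at -2.35 ± 0.20. TB40H08 was a lone low tile, followed by TB40H09 at 1.59. From TB06F04 at 1.49 to TB06F05 at -2.85 the difference was -4.34 ± 0.35, at the start of 4 tiles with a mean of -2.75 ± 0.16. From TB00A10 at 2.44 to TB00A11 at -1.86 it was -4.30 ± 0.35. TB37H08 at -2.37 and TB37H09 at 2.19 differed by 4.56 ± 1.13, but TB37H08 was among the least repeatable tiles. In all, 188 of 4629 adjacent pairs (4.06%) differed by more than 2, while the median absolute difference was 0.54. On the highest plates the lowest tiles varied. In TB44 the tile TB44F02 was at -1.45 ± 0.16 between 0.87 and 0.68, and in TB08 the lowest tile, TB08G10, was only at -0.83 ± 0.33. In TB26 the lowest was TB26E04 at -3.01 ± 0.25, beside TB26E03 at -2.72. Conversely, the low plates TB18 and TB01 reached 2.41 ± 0.56 at TB18B11 and 2.14 ± 0.28 at TB01G01.

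Neighbours along the rows resembled each other over a few tiles. Pearson's r between tiles 1 apart was 0.63 ± 0.02 (SD, n = 4 replicates; 4676 pairs), as a description, since tiles share arrays and regions. It was 0.40 ± 0.03 at 2 tiles, 0.23 ± 0.02 at 5, 0.16 ± 0.01 at 12 and -0.001 ± 0.019 at 96, which is 1 full plate. After removal of the plate medians it was 0.58 ± 0.02 at 1 tile and 0.07 at 12. Across the borders between plates, from well H12 to well A01 of the next number, it was 0.59 ± 0.03 over 47 borders. Read down the columns, tiles 1 apart had an r of 0.16. In TB50 to TB99 the r along rows was lower at 1 tile, 0.52 ± 0.03, and at 5 tiles, 0.10 ± 0.01. In TA64 to TA99 it was 0.59 ± 0.02 and 0.16 ± 0.01.

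**Figure D5:**
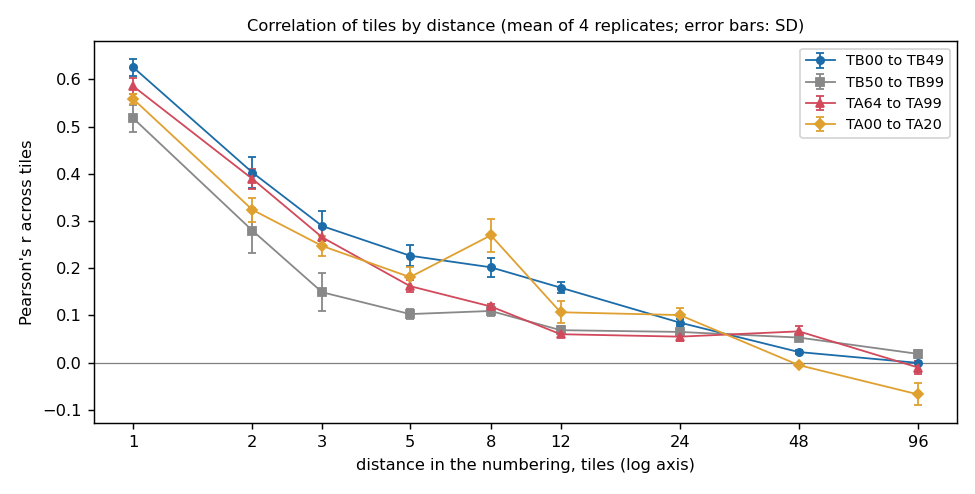
Pearson's r across tiles against their distance in the numbering (log axis, 1 to 96 tiles), as the mean of 4 replicates with the SD as error bars, for TB00 to TB49 and 3 other stretches. In TB00 to TB49 it runs from 0.63 at 1 tile to about 0 at 96, above TB50 to TB99 at distances of 1 to 24 tiles.

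Plates with even and odd numbers differed, a split looked at after the values were seen. The median of the 25 even plates was 0.51, 0.59, 0.50 and 0.61 in replicates I to IV, against 0.27, 0.22, 0.25 and 0.20 in the 25 odd plates. Each replicate of the even plates was above every replicate of the odd ones, with a difference of 0.32 ± 0.09 (SD, n = 4). Of the 11 plates with a mean median below 0, 8 had odd numbers. The difference was 0.42 ± 0.11 within TB00 to TB39, -0.003 ± 0.043 within TB40 to TB49 and 0.09 ± 0.04 in TB50 to TB99. The contrast of II and IV with I and III also followed the split: it was positive on 22 of 25 even plates and on 7 of 25 odd plates, with a median of 0.11 and -0.07. The cause was not tested.

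Medians also varied with the position in a plate. By row they lay between 0.29 in row E and 0.49 in row F, and by column between 0.24 in column 2 and 0.50 in column 1. Odd columns had a median of 0.44 ± 0.03 and even columns 0.33 ± 0.01 (SD, n = 4). Of the 63 wells without a value, 14 were on TB26, all in rows A, C, E and G and 13 of them in even columns, and 5 were on TB31, 4 of them in column 1. The other plates had at most 4 each, and 21 plates were complete. The level of TB26 was measured on 82 of its 96 wells, and TB26C04, the highest tile, stands on the plate with the most blank wells. In its row, the even-column wells TB26C06, TB26C08 and TB26C12 were blank. TB26E04, the lowest tile of that plate, likewise shares its row with the blank wells TB26E02, TB26E06 and TB26E08.

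Most tiles were repeatable, with a median SD over replicates of 0.21. An SD above 0.7 was found for 57 tiles (1.20%), against 1.21% of all tiles. The least repeatable tile was TB37D08, with -0.34, 1.88, -0.44 and -0.46 in replicates I to IV (limma adjusted p = 0.70). Replicate II alone was high. Next was TB37H08, with -2.25, -0.94, -2.67 and -3.63, followed by TB34C09, with -1.74, 0.02, -1.999 and -0.34. Deviations recurred in column 8 of plate TB37: II was above the mean of the other replicates by 1.80 at TB37B08, 2.29 at TB37D08, 0.85 at TB37F08 and 1.90 at TB37H08. Replicate IV was below the mean of the other replicates at TB37B08, TB37D08 and TB37H08, with differences of -1.35, -0.82 and -1.67, means that include the high values of II. At TB37A08, TB37C08 and TB37E08, in the rows between, II differed by 0.02, -0.31 and -0.28, and at TB37G08 by 0.69. Among all tiles of TB00 to TB49 only 18 (0.38%) had II more than 1 above the others. The high tile TB37C08 shares this column, but its 4 values, 3.36, 2.87, 3.36 and 2.82, were all high.

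Plate medians were close across the upper limit of the numbering and apart across the lower. TB49, the last plate, had a median of 0.61 ± 0.04 and TB50, the next, 0.68 ± 0.03 (SD, n = 4). TB49H12 was at 0.44 and TB50A01 at 1.37. At the other end TB00 had a median of 0.34 ± 0.01 and TA99, the plate numbered before it if the series follow each other, -0.76 ± 0.15. TB00A01 was at -0.36 and TA99H12 at -2.09. Whether TA99 and TB00 adjoin on the chromosome is not given in the sources used here.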

How the data were processed

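Per the labels, the DNA was amplified and both dyes, Cy3 and Cy5, were attached directly. The authors' deposited values are processed log ratios of unstated base and direction. The authors' background correction, normalization and software are stated in no source used here, and scanner intensities were not used, so signal over background is unknown. Tiles lacking a value (63 of 4800 wells) were left out. Each replicate was centred on its median over the 21296 measured tiles, and tile means were tested against 0 with limma 3.58.1 (R 4.3.3; lmFit and eBayes) with Benjamini-Hochberg adjustment over all tiles. Medians and their differences were tested by exact sign flips in Python 3.11.15 (numpy 2.4.6). A run is a series of consecutive tiles called on 1 side, skipping wells without a value. The fit was checked on simulated data with independent replicates. That check leaves out the likeness of I with III and of II with IV, so it cannot show how this affects the calls. Named tiles follow a fixed rule: the 8 highest and 8 lowest tiles of 1 sign, the 3 longest runs per side, the 4 highest and 4 lowest plates, the 4 largest steps, the 3 largest SDs and the extremes of the outermost plates; others named beside them are neighbours or were chosen after their values were seen. Tiles, rules and comparisons were chosen with earlier results of these data known. The number of arrays limits the precision, and standard errors of tile means had a median of 0.11.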

Additional observations from a re-analysis of the deposited data

Results flagged for a closer look

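Among 140 sets of 4 replicate values examined, 5 had 1 replicate apart from the rest by a gap that passes Dixon's critical value for 4 values. Chance sets apart about 1 in 20 sets of independent normal values, a rate that 5 of 140 does not exceed. Here the replicates form look-alike pairs and the sets overlap, so that rate is only a guide. TB37D08 was examined because of its large SD. At tile TB37D08 replicate II, at 1.88, was apart from -0.34, -0.44 and -0.46, a gap of 0.950 of the range. The step from TB06F04 to TB06F05 was -3.81 in III, beside -4.55, -4.50 and -4.49 in I, II and IV, a gap of 0.928. The median of TB00 to TB09 was 0.36 in III, beside 0.45, 0.46 and 0.45, a gap of 0.866. Tile TB23B01 was at -3.38 in III, beside -3.73, -3.75 and -3.69, a gap of 0.837. The median of plate TB49 was 0.55 in II, beside 0.63, 0.64 and 0.63, a gap of 0.857.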

How the results depend on the processing

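Without centring 1257 tiles were above 0 and 15 plates had a median above 0, and with centring on the mode 1357 tiles were above, 2185 below and 15 plates above, in place of 2530, 1380 and 39. The median of TB00 to TB49 was then -0.23 and -0.25, in place of 0.39, where the median of all tile means lay at -0.61 and -0.63. A minimum difference of 0.58 left 1617 above (34.1%) and 673 below (14.2%), against 26.5% and 29.4% of all tiles. Read down the columns, runs above numbered 1071 and below 876, in place of 610 and 516. In that order the longest run below had 10 tiles, in place of 50, and the neighbour r was 0.16, in place of 0.63. Along the rows with plate medians removed, the neighbour r was 0.58. Bridging 1 uncalled tile made the longest run above 59 tiles. Scaling, quantile normalization, averaged pairs, both random blocks, the title-number pairs alone and an adjusted p of 0.01 kept the counts within 1.5 times. Blocks by title number gave 2778 above (58.6%, against 46.7% of all tiles) and 1582 below (33.4%, against 46.2%). The correlation within these blocks was negative, at -0.77. It was 0.70 within blocks of I with III and II with IV, which were added after seeing the data. I and II alone gave 2237 above, 47.2% against 37.2% of all tiles, and 1108 below, 23.4% against 37.6%. III and IV alone gave 2207, 46.6% against 36.5%, and 1058, 22.3% against 37.01%. Under averaged pairs, title-number pairs alone and mode centring limma pooled 1 spread over all tiles. The 4 differences of medians kept their sign in every setting run, and a shift of the zero point cannot change them. Without each replicate in turn, 2426 to 2478 tiles were above, 1294 to 1322 below and 38 to 39 plates above 0. The median was 0.38 to 0.40. TB37D08 turned to -0.46 without centring, -0.47 on the mode and -0.45 in III and IV alone. With I and II alone, at -0.34 and 1.88, its mean was 0.77. It was called above there by the spread pooled over all tiles, not by the spread of these values. TB37D08 ranged from -0.41 to 0.36 when each replicate was left out in turn, -0.41 being without II. TB34C09 was no longer called without I or III, at an adjusted p of 0.01 or with the minimum difference, nor TB08G10 with that difference. The cause of these changes was not tested beyond the construction of each alternative. No paired analysis was possible because there is 1 group.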
